A study of Sus scrofa with 5 samples.

Results

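APOE, FABP7, KCNJ10, GLUL, SLC1A3, MBP, PMP22, SOX10 and ERBB3 are genes best known from the glia of the dorsal root ganglion, and they were followed here through nuclei that carry neuronal transcripts. They were taken by name from the rows of a deposited count table, where all 9 had a row among 30477 genes. The nuclei came from thoracic and lumbar dorsal root ganglia of 5 male Landrace pigs, titled Pig 1 to Pig 5, a single group with no treatment, allele or time point; ages were not given. Nuclei were freed with Triton X-100 or IGEPAL CA-630 from 80 mg of tissue per sample, and neuronal nuclei were enriched by density gradient or by magnetic or flow sorting with antibodies to NeuN. In all, 17277376 unique molecular identifiers (UMIs) were counted over 2189 nuclei, from 501 to 338372 per nucleus with a median of 4565. Barcodes carried 6 endings, read as 6 libraries, and nothing tied an ending to a pig or to a protocol, so library, pig and protocol cannot be told apart. Without replicates, the nuclei form 1 pooled sample; nothing was tested, and the 95% intervals cover only counting error.

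Each sensory neuron in the ganglion is wrapped by satellite glial cells, and its axon runs with myelinating or non-myelinating Schwann cells. Satellite glia take up potassium and glutamate around the cell body and secrete lipid carriers, while myelinating Schwann cells build the compact myelin sheath. Both arise from the neural crest and share a transcription programme. When tissue is broken open to free nuclei, RNA released from any of these cells can be caught in the same droplet as a nucleus of another cell, so a glial transcript counted with a neuronal nucleus need not have been made in it. The levels were therefore read in 3 ways: by library, by the depth of the nucleus and by the type of neuron.

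The 9 genes fall into 3 roles. Among the satellite glial genes, APOE encodes a secreted lipid carrier, FABP7 a fatty acid binding protein, KCNJ10 an inward rectifier potassium channel, GLUL glutamine synthetase and SLC1A3 a sodium-driven glutamate transporter. MBP and PMP22 encode proteins of compact myelin. SOX10 is the transcription factor shared by both kinds of glia, and ERBB3 is the receptor through which neuregulin from axons reaches Schwann cells. In the RefSeq annotation of the pig build Sscrofa11.1, APOE lies at chr6:51373113-51375333, FABP7 at chr1:39872198-39876272, KCNJ10 at chr4:90421956-90457406 and GLUL at chr9:123751551-123762575. SLC1A3 lies at chr16:21873691-21965315, MBP at chr1:147649516-147685289 and PMP22 at chr12:58679773-58734195. SOX10 and ERBB3 share a chromosome, at chr5:9890439-9901746 and chr5:21474218-21495040. The gene spans differ widely, with 2221 bases for APOE and 91625 bases for SLC1A3, and the UMI counts were not scaled to length, so levels are compared across nuclei within a gene; where UMIs of different genes are set side by side, they are counts and not levels per length.

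The 9 genes summed to 20483 UMIs, which is 1186 counts per 1000000 UMIs (CPM; 95% interval 1169 to 1202). APOE held 10791 of these UMIs (625 CPM), PMP22 3947 (228 CPM), GLUL 2207 (128 CPM), MBP 1367 (79.1 CPM) and ERBB3 1111 (64.3 CPM). SLC1A3 had 669 UMIs (38.7 CPM), SOX10 245 (14.2 CPM), FABP7 92 (5.32 CPM) and KCNJ10 54 (3.13 CPM), so the last pair was too sparse for most comparisons within a library. At least 1 UMI of the 9 genes was found in 1940 of 2189 nuclei. APOE was counted in 66.2% of nuclei (95% interval 64.2 to 68.2), PMP22 in 55.0%, GLUL in 41.8%, SLC1A3 in 16.2% and KCNJ10 in 1.96%.

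Every nucleus had a UMI of a pan-neuronal list (15 of 16 genes had a row, led by MAP1B, RBFOX1 and NEFL), and in no nucleus did the 9 glial genes together exceed that list. The list stood at 25356 CPM over all nuclei, against 1186 CPM for the 9 genes. With sums so unlike, the comparison could hardly come out otherwise and is a weak check of the label. RNA freed from neurons is counted the same way, and its part in these counts was not tested. The 9 genes made up a median of 0.0821% of a nucleus's UMIs and at most 1.52%. That nucleus, in library 1, held 27 UMIs of the 9 genes (17 of APOE) and 36 of the pan-neuronal list among 1778.

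Across libraries, APOE had the widest range of the 9 genes. It stood at 1990.1 CPM in library 1, 857 in library 2, 263 in library 3, 782 in library 4, while libraries 5 and 6 had 134 and 96.5 CPM. Library 2 held 13 nuclei, of which 3 carried 98.3% of its UMIs, and it was left out of the ranges that follow. The highest library then exceeded the lowest 20.6-fold for APOE, 9.94-fold for FABP7, 6.51-fold for KCNJ10 and 4.73-fold for PMP22. The span was narrower for SOX10 (4.30-fold), MBP (3.76-fold), SLC1A3 (3.65-fold), GLUL (3.35-fold) and ERBB3 (2.95-fold).

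**Figure D1:**
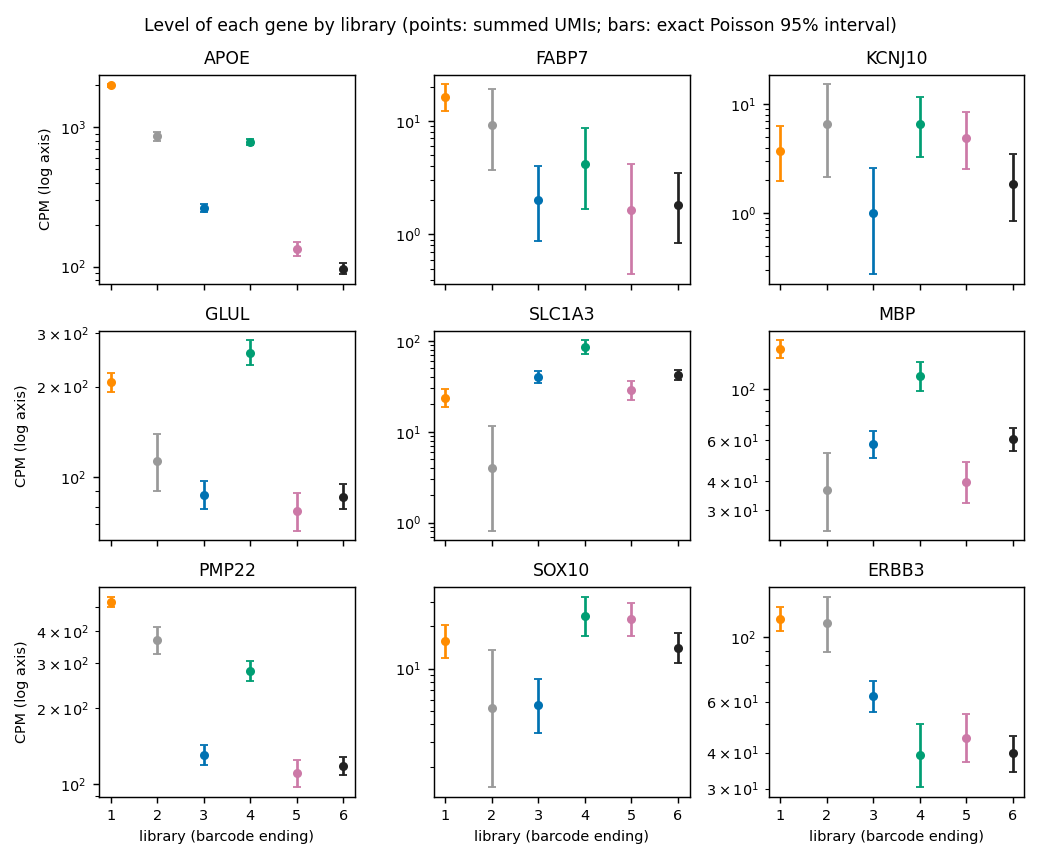
Level of each gene in counts per 1000000 UMIs (log axis, a separate scale in each panel) in the 6 libraries; points are summed UMIs and bars exact Poisson 95% intervals. APOE, FABP7, MBP, PMP22 and ERBB3 have their highest point in library 1, while SLC1A3 has its highest in library 4 (86.3 CPM).

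The genes did not share 1 order of libraries. PMP22 was at 522 CPM in library 1 and between 110 and 131 CPM in libraries 3, 5 and 6, with 279 CPM in library 4. MBP was at 149 CPM in library 1, 114 in library 4 and from 39.6 to 60.9 in libraries 3, 5 and 6. Both myelin genes thus were highest in library 1 and next in library 4, as APOE was, but over a narrower range. SLC1A3 went the other way in library 1, with 23.7 CPM (18.9 to 29.3) there, against 40.2 CPM in library 3, 86.3 in library 4, while libraries 5 and 6 had 28.6 and 42.4 CPM. SOX10, at 15.7 CPM in library 1, was lowest in library 3 (5.53 CPM) and highest in libraries 4 and 5 (23.8 and 22.5 CPM). GLUL had 207 CPM in library 1 and 259 CPM in library 4, against 77.3 to 87.3 CPM in libraries 3, 5 and 6.

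Library 1 against the other libraries pooled showed 5 of 9 genes at least 2-fold higher, where 17.7% of the 13303 genes with at least 50 UMIs passed the same fold. These were APOE (7.19-fold), FABP7 (6.40-fold), PMP22 (3.39-fold), MBP (2.43-fold) and ERBB3 (2.26-fold). GLUL stood at 1.93-fold, KCNJ10 at 1.25-fold, SOX10 at 1.14-fold and SLC1A3 at 0.56-fold. Library 4 had 3 of 9 at least 2-fold higher than the other libraries (KCNJ10, GLUL and SLC1A3; all genes, 10.8%). At least 2-fold lower were 4 of 9 in library 3 (all genes, 25.4%), 4 of 9 in library 5 (13.7%) and 3 of 9 in library 6 (14.6%), and APOE and FABP7 were among them each time. The composition shifted with it. APOE made up 65.4% of the UMIs of the 9 genes in library 1, 40.5% in library 3, 49.0% in library 4, with 28.9% and 20.9% in libraries 5 and 6, while SLC1A3 made up 0.78% in library 1 and 5.42% to 9.18% in libraries 3 to 6.

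Some transcripts of other non-neuronal cells, and the summed pan-neuronal list, were also highest in library 1, and their part in these levels was not tested. The pan-neuronal list was at 34908 CPM there, 34763 CPM in library 2 and 19448 to 24680 CPM in libraries 3 to 6. Of its 15 genes, all tested, 6 were at least 2-fold higher in library 1 and 3 at least 2-fold lower (median log2 ratio 0.58). HBB, which encodes a globin of red blood cells, was at 151 CPM in library 1 and between 11.6 and 30.2 CPM in the other 5. Of the 7 fibroblast genes, all tested, 4 were at least 2-fold higher in library 1 with a median log2 ratio of 1.45, against −0.14 over all genes tested; COL1A2, COL1A1 and COL3A1 had the most UMIs of that list. Of the 7 immune genes tested 3 passed, with a median of −0.07 and the most UMIs in CD74, PTPRC and MRC1. Of 5 vascular genes tested 0 passed (no test was run; VWF, PECAM1 and FLT1 had the most UMIs), and the summed vascular list was at 90.7 CPM in library 1, below libraries 4, 5 and 6 (92.3 to 113 CPM). Besides the 9 genes, the satellite and shared glial list had 3 of 6 tested at least 2-fold higher (median log2 ratio 0.89; most UMIs in HMGCS1, KCNJ3 and CDH19) and the non-myelinating Schwann list 1 of 6 (median 0.20; NCAM1, CADM2 and SCN7A). The mitochondrial share did not follow this order. Its median per nucleus was 4.08% in library 1, 18.5% in library 3 and 1.71% in library 4, while libraries 5 and 6 had 0.114% and 0.0605%.

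Depth separated the genes next. Nuclei were divided at the median total of their own library into shallower and deeper ones. Summed over libraries, APOE had 845 CPM in shallower nuclei and 579 CPM in deeper ones, a ratio of 1.46 (1.39 to 1.53). PMP22 had 219 CPM in shallower and 230 CPM in deeper nuclei, a ratio of 0.95 (0.87 to 1.04), and ERBB3 57.0 and 65.8 CPM, a ratio of 0.87 (0.73 to 1.02). MBP had a ratio of 1.30 (1.14 to 1.48) and GLUL of 1.31 (1.18 to 1.45). SLC1A3 (ratio 1.5, 1.25 to 1.80) and SOX10 (1.61, 1.19 to 2.17) were the 2 of 9 genes at least 1.5-fold higher in shallower nuclei, a fold that 5.04% of all genes tested passed. With library 3 left out SLC1A3 was at a log2 ratio of 0.34 (0.59 with it), and 2 genes still passed, APOE and SOX10, as they did with library 2 left out.

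For SLC1A3 the ratio was close to 1 once nuclei were compared within their type. Divided at the median of each library and marker group, as described below, its ratio was 1.04 (0.86 to 1.25), with 42.1 CPM in shallower and 40.5 CPM in deeper nuclei. The same division left APOE at 1.43 (1.37 to 1.49) and SOX10 at 1.22 (0.90 to 1.65). Divided at the library median alone, APOE in shallower over deeper nuclei was at 1.71 in library 1, 2.01 in library 3, 3.20 in library 4, 0.87 in library 5 (0.66 to 1.15), with 1.36 in library 6. Divided within library and marker group, it was at 1.26 in library 1, 1.71 in library 3, 1.67 in library 4, 0.76 in library 5 (0.57 to 1.00), with 1.55 in library 6. Library 5 was the exception under both divisions, with intervals that reach equal levels.

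The genes also differed in molecules per nucleus. Each library was divided by total UMIs into 4 depth classes of like size, and between the shallowest and the deepest class of library 1 the mean total grew 11.2-fold, while APOE grew 5.48-fold, GLUL 5.13-fold, MBP 5.85-fold and SLC1A3 5.66-fold in UMIs per nucleus. PMP22 grew 10.9-fold and ERBB3 9.43-fold, close to the total, and the pan-neuronal list grew 15.6-fold. APOE thus fell behind the total, with 4.01 UMIs per nucleus in the shallowest class and 22.0 in the deepest. In library 3 the total grew 7.13-fold, APOE 3.08-fold, PMP22 8.25-fold and SLC1A3 1.94-fold. In library 5 APOE did not fall behind: the total grew 7.22-fold, APOE 7.61-fold and PMP22 14.5-fold. In library 6 the total grew 15.2-fold, APOE 7.39-fold, PMP22 16.3-fold, ERBB3 23.1-fold and the pan-neuronal list 12.0-fold. In library 4, with 75 nuclei, APOE fell behind the total, but so did PMP22, ERBB3 and the pan-neuronal list. Its total grew 44.4-fold, APOE 13.7-fold, PMP22 18.4-fold, ERBB3 19.0-fold and the pan-neuronal list 24.2-fold. SLC1A3 grew 61.8-fold there, from 2 UMIs in the shallowest class.

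**Figure D2:**
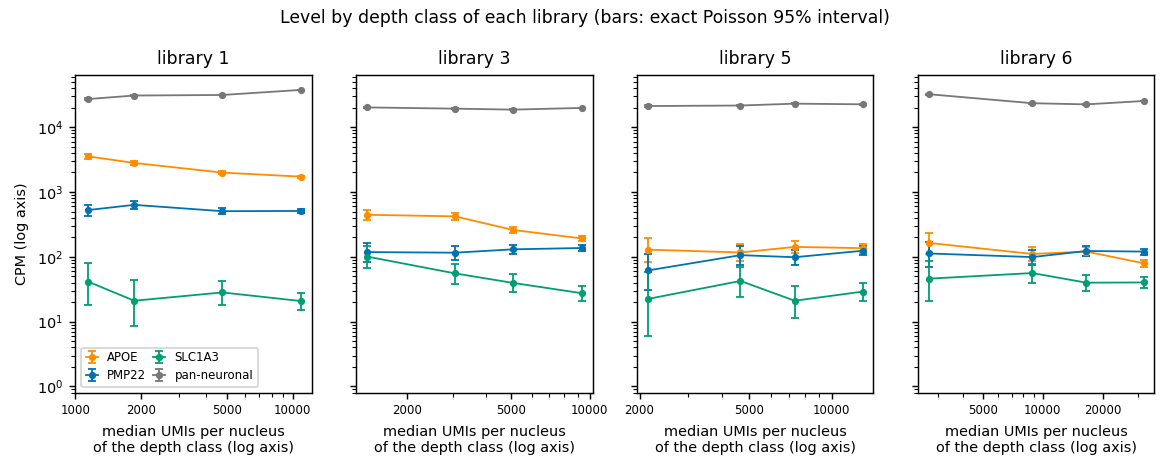
Level in counts per 1000000 UMIs (log axis) of APOE, PMP22, SLC1A3 and the summed pan-neuronal list in the 4 depth classes of libraries 1, 3, 5 and 6, against the median UMIs per nucleus of the class (log axis); bars are exact Poisson 95% intervals. APOE declines from 3543 to 1725 CPM across the classes of library 1, while PMP22 keeps close to its level (527 and 510.1 CPM in its outer classes).

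Nuclei were then grouped by type of neuron. They were clustered without the 9 genes or the genes of the cell-type, pan-neuronal and mitochondrial lists among the features. The markers used to name clusters were not left out, so the names are not independent of the clustering. Each cluster was called after the marker that led it most against the rest of its own library. The markers were TRPM8 (the cold and menthol channel), IL31RA (a receptor for the itch cytokine interleukin 31), GFRA2 (a receptor for neurturin), ADCYAP1 (the neuropeptide PACAP), KIT (the receptor for stem cell factor), NTRK2 and NTRK3 (receptors for the neurotrophins BDNF and NT-3) and PVALB (the calcium-binding protein parvalbumin). This gave 416 TRPM8-led, 192 IL31RA-led, 219 GFRA2-led, 577 ADCYAP1-led, 129 KIT-led, 176 NTRK2-led, 164 NTRK3-led and 216 PVALB-led nuclei, and 100 in a cluster that no marker led. Groups are uneven across libraries: of the 298 nuclei in the largest TRPM8-led cluster 292 came from library 1. Values are therefore given within libraries, for units of at least 10 nuclei, against the rest of the same library. Names were not stable for the shallow nuclei of library 1. With coarser clusters (Leiden resolution 0.5 in place of 1) the largest cluster was ADCYAP1-led, with 367 nuclei of library 1 (median 1663 UMIs). With finer clusters (1.5) a cluster with 201 nuclei of library 1 (median 1293 UMIs) had no leading marker, and a TRPM8-led one held 53.

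APOE differed less between the groups of library 1 than between libraries, while in library 4, described further on, groups lay far apart. In library 1 it stood at 2814 CPM in TRPM8-led, 1485 in IL31RA-led, 1957 in GFRA2-led, 1653 in ADCYAP1-led, 1874 in KIT-led, 1988 in NTRK2-led and 2054 in PVALB-led nuclei. The highest of these 7 groups was thus under 2-fold above the lowest, and TRPM8-led nuclei, the shallowest with a median of 1458 UMIs, were highest. Placed by their own marker UMIs instead, nuclei with NTRK3 as top marker were highest in library 1 (2698 CPM) and those with IL31RA again lowest (1462 CPM). In library 3 all 8 groups lay between 167 CPM (IL31RA-led) and 387 CPM (PVALB-led), below the lowest group of library 1. In library 6 they lay between 36.7 CPM (IL31RA-led) and 129 CPM (GFRA2-led), and in library 5 between 35.0 CPM (KIT-led) and 188 CPM (ADCYAP1-led). IL31RA-led nuclei were below the rest of their library in each of the 4 libraries with such a unit, at 0.71-fold in library 1, 0.60-fold in library 3, 0.81-fold in library 5 (0.50 to 1.25), with 0.37-fold in library 6 (0.17 to 0.70). Placed by their own marker UMIs, IL31RA nuclei were above the rest in 1 of 4 libraries (log2 ratio 0.21).

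SLC1A3 followed the group. In library 3, NTRK3-led nuclei had 338 CPM (271 to 417; 87 UMIs in 68 nuclei), against 19.6 CPM in the rest of that library, a ratio of 17.2 (12.5 to 23.8). In library 6 they had 136 CPM (111 to 164), against 24.7 CPM in the rest, a ratio of 5.50 (4.15 to 7.29). In library 4 they had 142 CPM, against 50.7 CPM in the rest (ratio 2.81, 1.98 to 4.02), and in library 5 55.3 CPM, against 25.5 CPM in the rest (ratio 2.17, 1.11 to 3.94). NTRK3-led nuclei were highest for SLC1A3 in all 4 libraries that held such a unit, and library 1 held none.

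SLC1A3 differed widely among the other groups too. In library 3 it was next highest in NTRK2-led nuclei, at 70.2 CPM (52.0 to 92.9), against 33.9 CPM in the rest, and most of that came from 1 of 2 NTRK2-led clusters (147 CPM in 92 nuclei, and 21.2 CPM in the other 59). It was at 1.89 CPM in IL31RA-led, 7.38 in GFRA2-led, 7.29 in ADCYAP1-led, 7.74 in KIT-led and 25.3 in TRPM8-led nuclei of library 3. The 41 PVALB-led nuclei there held no SLC1A3 UMI, with an exact interval that reaches 24.2 CPM. APOE in the same nuclei had none of this pattern: NTRK3-led nuclei had 315 CPM of APOE, against 260 CPM in the rest of library 3, and in library 6 65.3 CPM, against 102 CPM in the rest.

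**Figure D3:**
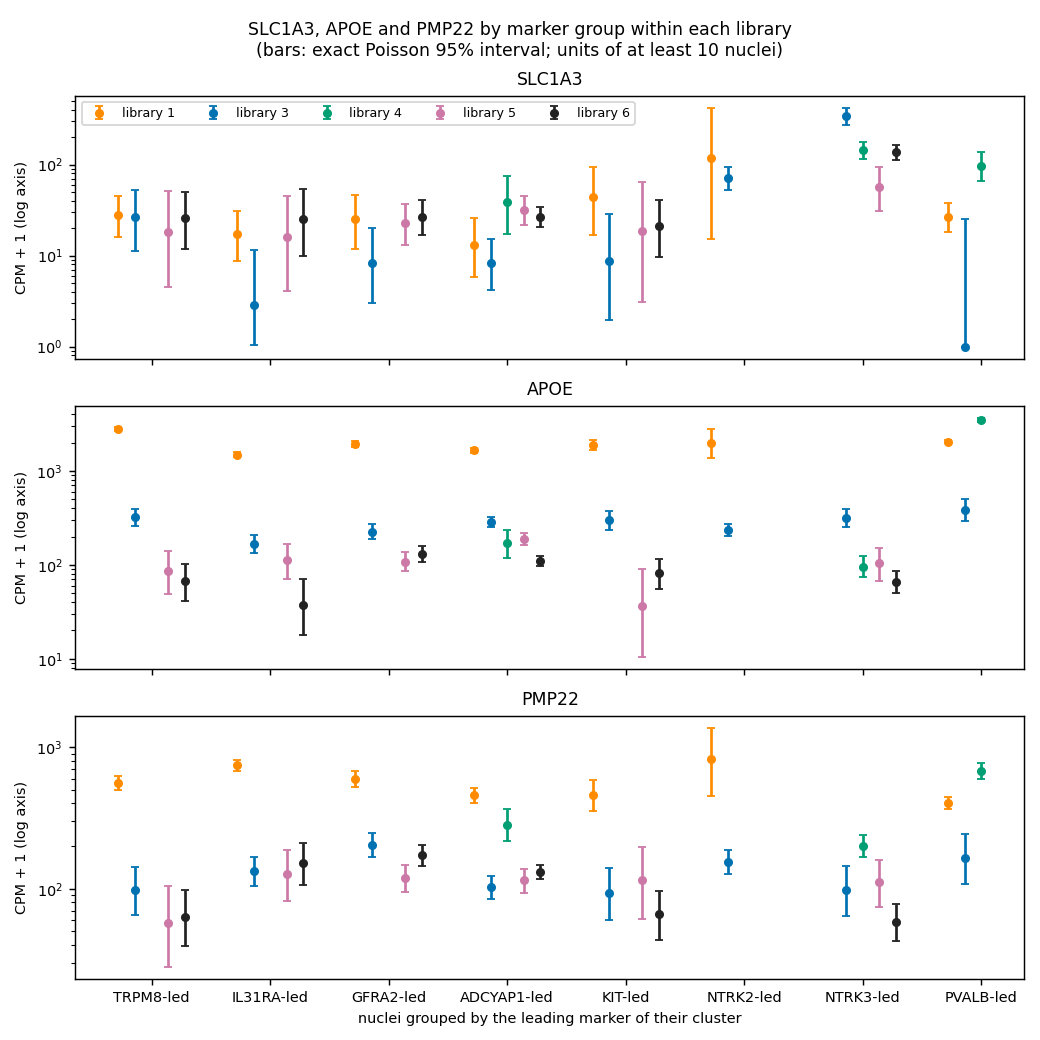
SLC1A3, APOE and PMP22 in counts per 1000000 UMIs plus 1 (log axis) by marker group, with 1 point per library and group of at least 10 nuclei and exact Poisson 95% intervals. SLC1A3 points are highest for NTRK3-led nuclei (338, 142, 55.3 and 136 CPM in libraries 3, 4, 5 and 6), whereas for APOE library 1 is highest in every group it has a point in, other than PVALB-led, where library 4 is above it; the order of libraries 3 to 6 changes between groups.

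The difference in SLC1A3 was spread over many nuclei. Of NTRK3-led nuclei in library 3, 55.9% had a SLC1A3 UMI at a median of 2066 UMIs, against 7.73% of the rest at 4123 UMIs, and the most in 1 nucleus was 11 UMIs. In library 6 the shares were 68.9% of NTRK3-led nuclei and 27.7% of the rest. Among nuclei with at least 1000 UMIs, the median NTRK3-led nucleus had 218 CPM in library 3, with 21 of 55 at 0, while 206 of 213 ADCYAP1-led nuclei of that library were at 0. When each nucleus was thinned to 1000 UMIs, 23.6% of NTRK3-led nuclei in library 3 kept a SLC1A3 UMI (13.2 to 37.0; 13 nuclei were too shallow), against 10.3% of NTRK2-led nuclei and at most 1.61% in the other named groups. In library 6 the thinned share was 16.3% in NTRK3-led nuclei (6.81 to 30.7) and at most 9.09% in the others. In library 5 it was 3.57% (0.0904 to 18.3) and could not be told from the other groups at this depth.

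The NTRK3-led nuclei also differed in their mitochondrial share. In library 3 the median mitochondrial share was 0.880% in NTRK3-led and 4.98% in NTRK2-led nuclei and from 19.1% to 41.8% in the other 6 named groups; with mitochondrial genes left out of the totals the pooled SLC1A3 log2 ratio was 2.54, beside 2.66 with them. The satellite and shared glial list without the 9 genes was at 377 CPM in NTRK3-led nuclei and 371 CPM in the rest of library 3, and the fibroblast list at 128 and 124 CPM. In library 6 the same lists were at 258 CPM in NTRK3-led nuclei and 257 CPM in the rest, and 120 and 152 CPM. Library 4 had the satellite list at 213 CPM in NTRK3-led nuclei and 529 CPM in the rest, and the fibroblast list at 35.2 and 261 CPM. Library 5 had them at 162 CPM in NTRK3-led nuclei and 219 CPM in the rest, and at 166 and 157 CPM. Pooled over libraries, NTRK3-led nuclei had 1 of 9 genes at least 2-fold higher, SLC1A3 (all genes, 13.3%), and 3 of 9 at least 2-fold lower, APOE, GLUL and PMP22 (all genes, 19.6%). SLC1A3 was the only one at least 2-fold higher with any 1 library left out, but the lower ones depended on library 1: without it APOE was at a log2 ratio of −1.42 (−2.36 with it), GLUL at −0.89 (−1.10) and PMP22 at −0.44 (−1.03). Without library 2 there were 2 lower genes, APOE and GLUL, and without library 6 there were 5, with ERBB3, FABP7 and KCNJ10 in place of PMP22. The SLC1A3 ratio lay at percentile 98.8 of the 13303 genes tested.

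Placing nuclei by their own marker UMIs in place of their cluster kept SLC1A3 highest in NTRK3 nuclei of libraries 3, 5 and 6. The order of the other groups changed. In library 6, ADCYAP1 went from next highest by cluster (25.8 CPM) to lowest by own markers (12.9 CPM). This placing needed a single top marker with at least 2 UMIs. It left 872 of 2189 nuclei (median 2169 UMIs) unplaced, and these were counted in the rest. Nuclei with NTRK3 as their top marker had 222 CPM in library 3 (rest 23.9; ratio 9.32), 146 in library 4 (rest 48.5; 3.02), 102 in library 5 (rest 26.5; 3.84), with 150 in library 6 (rest 27.0; 5.54). In library 1, 11 such nuclei held 1 SLC1A3 UMI, 16.9 CPM (0.427 to 93.9), against 23.8 CPM in the rest, too few to place library 1 beside the others.

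PMP22 differed by library and, within libraries, by group. Library 1 was high in every group, from 402 CPM in PVALB-led to 819 CPM in NTRK2-led nuclei, the last from 14 UMIs. Within that library IL31RA-led nuclei had 745 CPM, against 474 CPM in the rest, a ratio of 1.57 (1.41 to 1.75), although their APOE was lower than the rest. GFRA2-led nuclei had 203 CPM, against 119 CPM in the rest of library 3 (ratio 1.70, 1.37 to 2.11), and 172 CPM, against 108 CPM in the rest of library 6 (1.59, 1.30 to 1.93). They were also above the rest in library 1 (596 and 513 CPM; 1.16, 1.01 to 1.34) and, within counting error, in library 5 (119 and 107 CPM). TRPM8-led nuclei were lower in libraries 5 (56.7 CPM, rest 115) and 6 (62.4 CPM, rest 122). NTRK3-led nuclei had 57.7 CPM, against 130 CPM in the rest of library 6 (ratio 0.45, 0.32 to 0.60), while in library 5 both sides were at 110.6 and 110.3 CPM.

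**Figure D4:**
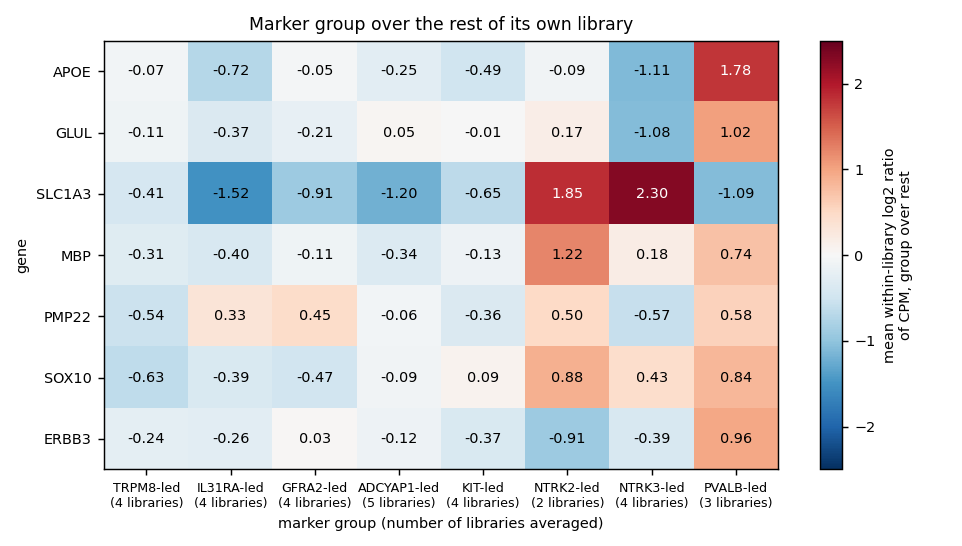
Mean over libraries of the within-library log2 ratio of counts per 1000000 UMIs, marker group over the rest of the same library, for the 7 genes with at least 200 UMIs; the number of libraries averaged stands under each group. SLC1A3 is highest in NTRK3-led (2.30) and NTRK2-led (1.85) nuclei, where the NTRK2-led value averages 2 libraries and library 1 has 2 SLC1A3 UMIs. All genes shown but SLC1A3 have a mean above 0 in PVALB-led nuclei, though GLUL, MBP and PMP22 were above the rest in 2 of the 3 libraries averaged.

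MBP, ERBB3 and SOX10 also differed between groups. In library 3 MBP was at 102 CPM in NTRK2-led nuclei, against 48.5 CPM in the rest, a ratio of 2.10 (1.56 to 2.79), and at 18.9 CPM in IL31RA-led nuclei, against 63.8 CPM in the nuclei outside that group. NTRK2-led nuclei of library 3 thus had 2 of 6 tested genes at least 2-fold higher, MBP and SLC1A3 (all genes tested there, 10.4%). ERBB3 was at 150 CPM in PVALB-led nuclei, against 99.9 CPM in the rest of library 1 (ratio 1.5, 1.22 to 1.83), and at 60.5 CPM in ADCYAP1-led nuclei, against 35.2 CPM in the rest of library 5 (1.72, 1.16 to 2.54). SOX10 was at 30.8 CPM in ADCYAP1-led nuclei, against 17.3 CPM in the rest of library 5 (1.78, 1.01 to 3.15), and outside library 4 no other SOX10 interval excluded equal levels. FABP7 reached 23.2 CPM in TRPM8-led nuclei of library 1 and had at most 9 UMIs in any other library.

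PVALB-led nuclei were the highest group when libraries were pooled, with 7 of 9 genes at least 2-fold higher (all genes, 17.5%) but not alike in each library. Without library 4 these were 3 of 9, APOE, FABP7 and ERBB3, and KCNJ10 turned to a log2 ratio of −1.94 (1.12 with it); without library 6 they were 4 of 9, and without any other library 5 or 7. The log2 ratio of APOE was 2.21, and 3.58 without library 1. Their APOE was at 2149 CPM pooled. In library 1, where 141 of these 216 nuclei lay, PVALB-led nuclei had 2054 CPM of APOE, against 1960.1 CPM in the rest (ratio 1.05), and in library 3 387 CPM, against 258 CPM in the rest (1.5, 1.13 to 1.95). This direction depended on the grouping. With nuclei placed by their own marker UMIs, APOE in PVALB nuclei was below the rest in libraries 1 and 3 (mean log2 ratio −0.25). Library 4 was different: its 25 PVALB-led nuclei had 3491 CPM of APOE, against 136 CPM in the rest of that library, a ratio of 25.7 (22.0 to 30.2). Its 16 NTRK3-led nuclei had 94.9 CPM and its 11 ADCYAP1-led nuclei 169 CPM. Every one of the 25 carried APOE, with 362 CPM as the lowest, 2736 as the median and 9412 as the highest.

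Most of the 9 genes were high in these 25 nuclei at once. GLUL was at 878 CPM, against 111 CPM in the rest of library 4, PMP22 at 680.2 and 184 CPM, MBP at 263 and 78.2 CPM, ERBB3 at 95.8 and 25.8 CPM and SOX10 at 52.6 and 17.0 CPM. KCNJ10 had 9 UMIs in them, 6 of these in 1 nucleus, and 2 in the rest of the library. SLC1A3 was the exception, with 95.8 CPM in PVALB-led nuclei and 84.1 CPM in the rest. Other lists stood higher beside them: fibroblast genes at 618 and 67.1 CPM, immune genes at 1020.3 and 170.4 CPM and the 2 measured blood genes at 64.9 and 15.5 CPM. Pan-neuronal genes were at 24630 and 20633 CPM, and the median mitochondrial share was 2.70% in PVALB-led, 0.00904% in NTRK3-led and 1.21% in ADCYAP1-led nuclei of library 4. The part of these lists in the APOE difference was not tested.

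The deepest nuclei let the genes be read 1 nucleus at a time. Of 30 nuclei with more than 50000 UMIs, all from libraries 2, 4 and 6, a few held most of the APOE. An unled nucleus of library 2 with 168280 UMIs carried 647 APOE UMIs (3845 CPM), 63 of GLUL and 51 of PMP22, and a PVALB-led nucleus of library 4 with 54152 UMIs carried 214 of APOE (3952 CPM) and 73 of GLUL. The other 28 held 0 to 15 APOE UMIs each.

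PMP22 was not tied to APOE in these nuclei. An IL31RA-led nucleus of library 2 with 269590 UMIs had 137 PMP22 UMIs (508 CPM) and no UMI of APOE, FABP7, KCNJ10, SLC1A3, MBP or SOX10, with 12 of GLUL and 9 of ERBB3; a count of 0 allows up to 3. A GFRA2-led nucleus of the same library with 309706 UMIs had 91 of PMP22 and 45 of ERBB3 beside 4 of APOE. The deepest nucleus of all, ADCYAP1-led in library 6 with 338372 UMIs, had 40 of PMP22 and 6 of APOE. In the 9 NTRK3-led nuclei above 50000 UMIs, SLC1A3 ranged from 2 to 22 UMIs (14.1 to 339 CPM), and 8 of them had more SLC1A3 than APOE UMIs. One of these, in library 4, had 21 of SLC1A3, 6 of APOE, 7 of PMP22, 2 of MBP and none of GLUL or ERBB3 among 94573 UMIs.

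**Figure D5:**
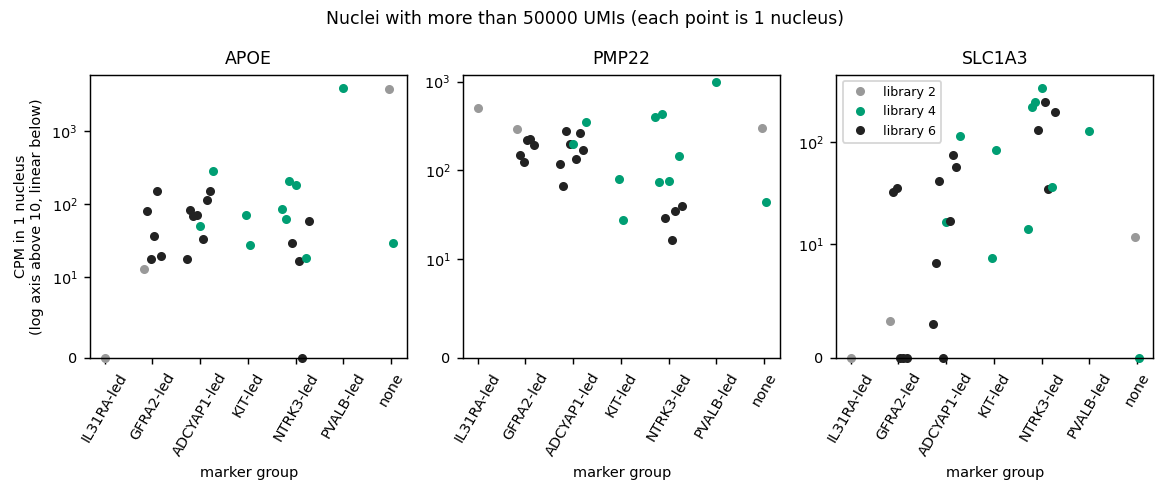
APOE, PMP22 and SLC1A3 in counts per 1000000 UMIs (log axis above 10, linear below) in each of the 30 nuclei with more than 50000 UMIs, by marker group, coloured by library. APOE is at 3845 and 3952 CPM in 2 nuclei and below 300 in the rest, PMP22 is above 10 in all of them, and SLC1A3 reaches its highest values in NTRK3-led nuclei.

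Within a library, counts of APOE were more uneven between nuclei than their totals give. Against a constant share of each nucleus's UMIs, where counting error alone gives a variance ratio near 1, APOE had ratios of 9.96 in library 1, 4.41 in library 3, 93.7 in library 4, with 2.16 and 6.01 in libraries 5 and 6. SLC1A3 had 2.72 in library 3, 7.23 in library 4 and 3.91 in library 6, and 1.12 and 1.05 in libraries 1 and 5. PMP22 lay between 0.98 (library 5) and 2.23 (library 1) outside library 4, and SOX10 between 0.97 and 1.24 outside it. Of the 22 nuclei with the highest share of the 9 genes, 21 came from library 1 and 1 from library 4.

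The genes most like the 9 in level across the 34 units of library and marker group, by Pearson's r of log2(CPM + 10), were CST3 (0.952), VIM (0.952), B2M (0.952), APOA1 (0.934) and ITM2B (0.934). These units share libraries and depth, and the correlations are descriptions. APOE was most like CST3 (0.975) and B2M (0.947), and after library means were removed like CST3 (0.860) and SPARC (0.858). GLUL was most like VIM (0.882) and SPARC (0.875), and MBP like the same pair (0.861 and 0.838). PMP22 was most like STMN2 (0.904), a neuronal regulator of microtubules, and B2M (0.893). After library means were removed, neither was among its closest, which were UBLCP1 (0.718) and EEF2 (0.709). SLC1A3 was most like KAZN (0.828) and CHST9 (0.814), genes that neither the summed 9 nor another of them had among its closest. ERBB3 was most like UBE2D3 (0.873) and the unnamed gene ENSSSCG00000001696 (0.854), and SOX10 like GEM (0.783) and RAB32 (0.763).

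Among the 9 genes themselves, APOE and GLUL were most alike over these units (r = 0.877), and APOE and PMP22 had 0.843. With library means removed these were 0.772 and 0.422. Before that removal, SLC1A3, SOX10, KCNJ10 and ERBB3 had no value above 0.468, that of ERBB3 to APOE. SLC1A3 had 0.108 to APOE, 0.124 to PMP22 and −0.305 to ERBB3, and its highest value was 0.383, to MBP. SOX10 had 0.143 to APOE and 0.189 to PMP22, KCNJ10 had 0.255 to APOE, and the highest value of both was 0.435, to each other. With library means removed, SOX10 had 0.551 to ERBB3 and 0.474 to APOE, and KCNJ10 had 0.496 to APOE, all above APOE to PMP22. In that version ERBB3 had 0.363 to APOE, SOX10 and KCNJ10 had 0.251 to each other and SLC1A3 had 0.031 to APOE.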

How the data were processed

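The authors deposited 1 table of raw UMI counts, 30477 genes by 2189 nuclei, with no normalization. Per the submitters' processing notes, Cell Ranger 6.0.1, Seurat and the build Sscrofa11.1 are listed, in unstated roles; the annotation, any removal of free RNA or doublets before deposit, and whether intronic reads were counted are not given in the sources used here. Of the rows, 6124 held no count and 785 Ensembl identifiers were given the symbol that a reference gene table pairs with them. No barcode was shared between libraries, and library totals ran from 760816 (library 2) to 4910023 UMIs (library 6). Whole-nucleus counts were summed over nuclei and given as CPM.

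The 9 genes and all lists were chosen with earlier results of these data known. Counts were scaled to 10000 per nucleus and log-transformed. Of 2000 variable genes, 1974 remained after the 9 genes and all lists but the markers that name the groups were left out. Leiden clusters at resolution 1 (scanpy 1.11.5, leidenalg 0.10.2, 30 components, 15 neighbours) took the marker with the highest log2 ratio of CPM plus 10 against the rest of their library, at least 1, and otherwise no name. Libraries were not integrated, and doublets were neither called nor removed. Nuclei are not replicates, so no test over nuclei was made. Levels carry exact Poisson intervals, ratios of CPM the exact conditional binomial interval and shares the exact Clopper-Pearson interval (scipy 1.17.1), at 95%. In ratios, 0 counts were replaced by the floor of 3, and ratios over all genes needed 50 UMIs. Within-library log2 ratios needed 10 UMIs and 10 nuclei per side, with 0.5 counts added.

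Named were all 9 genes, the 3 genes of each list with most UMIs, and genes of at least 200 UMIs most like them (5 for the sum, 2 for each gene with at least 200 UMIs). Values were given within libraries, told apart by barcode ending. Library means were removed from the likeness in a second version added after the data were seen. Alternatives were other groupings and resolutions, thinning, totals without mitochondrial genes, and leaving out libraries, the deepest nuclei or the nuclei with the highest share. The summed values of the myelinating Schwann list are not reported here. No sequences are shown.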

Additional observations from a re-analysis of the deposited data

How the results depend on the processing

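Of 1095 alternative values for single genes, 813 moved by less than their counting interval, 267 by more and 15 changed the sign of a 2-fold difference whose interval excluded equal levels. With few UMIs and an interval that covered equal levels, KCNJ10 also changed sign, from −1.27 up to 2.92 (within libraries) in NTRK2-led nuclei and from 1.12 down to −1.94 (without library 4) in PVALB-led ones. The higher SLC1A3 of NTRK3-led nuclei kept its sign in all 14 alternatives run (log2 2.28 to 2.82, beside 2.66). Of the 2-fold differences, APOE did not keep its sign in TRPM8-, ADCYAP1- and NTRK2-led nuclei, nor FABP7 in TRPM8-, ADCYAP1- and PVALB-led ones. Differences under 2-fold whose interval excluded equal levels could change sign too. Among them were APOE in KIT-led nuclei (−0.89, up to 0.29) and GLUL in TRPM8-led ones (0.37, down to −0.68). PMP22 changed sign in TRPM8- (0.28, down to −0.93), ADCYAP1- (−0.63, up to 0.53) and NTRK2-led nuclei (−0.39, up to 0.88). In TRPM8-led nuclei APOE (log2 1.11) was at −0.65 without library 1, −0.55 with nuclei placed by their own marker UMIs, −0.65 at resolution 0.5 and −0.071 as a mean within libraries, and FABP7 (1.02) at −1.15, −0.98 and −0.96 under the first 3 of these (−1.15 to 1.09 leaving out each library in turn). In ADCYAP1-led nuclei APOE (−1.13) was at 0.65 and FABP7 (−1.49) at 0.58 with nuclei placed by their own markers, and 1.58 and 1.45 at resolution 0.5. In NTRK2-led nuclei APOE (−1.24) was at 0.044 without library 3 (−1.66 to 0.044 leaving out each library), 0.59 by own markers and 0.030 at resolution 0.5. FABP7 in PVALB-led nuclei (1.68) was at −0.24 within libraries. The cause was not tested.

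The summed level (1186 CPM) was 1245 without nuclei above 50000 UMIs, 1153 over nuclei with at least 1000 genes, 1147 without the 1% of nuclei with the highest share, 1677 as a mean over nuclei, and 713 (without library 1) to 1473 (without library 6). Shallower over deeper nuclei (log2 0.37) was 0.31 without that 1%, 0.57 as a mean over nuclei, 0.53 within libraries and 0.27 to 0.47 leaving out a library.

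The summed log2 ratios of the groups, in the order TRPM8-, IL31RA-, GFRA2-, ADCYAP1-, KIT-, NTRK2-, NTRK3- and PVALB-led, were 0.74, 0.01, −0.51, −0.78, −0.71, −0.60, −1.03 and 1.74. Within libraries they were −0.24, −0.32, −0.021, −0.21, −0.30, 0.22, −0.31 and 1.17. By own markers, pooled over libraries, they were −0.53, −0.57, −0.65, 0.38, 0.11, 0.48, −0.58 and 1.2. For PVALB nuclei by own markers, the mean within libraries 1 and 3 was −0.065. At resolution 0.5 they were −0.57, −0.71, −1.30, 1.11, −1.46, −0.022, −1.03 and 1.47, and at 1.5 they were 0.39, −0.43, −0.47, −0.48, −0.61, −1.19, −0.90 and 1.74. Thinned to 1000 UMIs they were 1.36, −0.30, −0.86, −0.97, −0.96, −0.76, −1.11 and 1.15. Without nuclei above 50000 UMIs, chosen after seeing the data, values that moved were 0.67 (TRPM8-led), −0.39 (GFRA2-led), −0.71 (ADCYAP1-led), −1.18 (NTRK3-led) and 1.61 (PVALB-led). Without the 1% they were −0.73 (ADCYAP1-led) and 1.69 (PVALB-led), and without mitochondrial genes 0.14 (IL31RA-led), −0.43 (NTRK2-led) and −1.15 (NTRK3-led). Leaving out a library gave ranges of −0.73 to 0.86, −0.68 to 0.17, −0.63 to −0.38, −0.91 to −0.52, −0.83 to −0.51, −0.92 to 0.42, −1.35 to −0.30 and 1.41 to 2.71, with library 1 giving 1 end for TRPM8-, IL31RA-, ADCYAP1-, NTRK3- and PVALB-led nuclei and library 3 giving the 0.42.

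Shares of the summed UMIs moved with library 1 left out, to 38.9% for APOE (52.7% with it) and 5.97% for SLC1A3 (3.27%). Leaving out libraries in turn gave 38.9% to 56.6% for APOE, 0.357% to 0.477% for FABP7, 0.217% to 0.418% for KCNJ10, 9.79% to 15.1% for GLUL and 2.53% to 5.97% for SLC1A3. It gave 5.86% to 8.61% for MBP, 18.5% to 21.6% for PMP22, 0.966% to 1.94% for SOX10 and 4.82% to 7.18% for ERBB3. Without nuclei above 50000 UMIs APOE was at 54.7%, SLC1A3 at 2.93% and PMP22 at 18.4%, and without the 1% APOE was at 51.7%. No paired analysis was possible because no nucleus could be tied to a pig and no test was made. Depth limits FABP7 and KCNJ10 within libraries, and 13 nuclei limit library 2.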

Other observations

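PRX, which encodes periaxin of myelinating Schwann cells, stood at 33.5 CPM in library 3 and at most 0.856 CPM in the other 5 libraries, from 141 UMIs in all, and its log2 ratio of shallower over deeper nuclei was 1.97. APOD, a secreted lipocalin placed in the fibroblast list, was also highest in library 3, at 37.5 CPM, with at most 8.58 CPM elsewhere. By group, both were highest in NTRK2-led nuclei, at 24.0 CPM for PRX and 37.3 CPM for APOD; 151 of these 176 nuclei came from library 3. These genes were singled out after their values were seen, and nothing was tested.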
